A study of Mus musculus with 6 samples.

Results

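The phase II conjugation enzymes attach a water-soluble group to drugs, toxins, hormones and bile pigments. They were followed in 6 mouse liver tumours, of which 3 lacked Gli1 (Gli1 KO) and 3 carried wild-type Gli1 (Gli1 WT). Members were all rows of the deposited gene count table whose symbol marks a UDP-glucuronosyltransferase (Ugt1a, Ugt2a, Ugt2b, Ugt3a), a cytosolic sulfotransferase (Sult), a soluble glutathione S-transferase (Gsta, Gstk, Gstm, Gsto, Gstp, Gstt, Gstz) or a microsomal one (Mgst1, Mgst2, Mgst3). This gave 62 of 43346 rows, made up of 20 UGT, 18 SULT, 21 GST and 3 MGST genes. The KO tumours are labelled Sulf2-TTR Gli1 KO and the WT tumours Sulf2-TTR Gli1 WT. All are labelled as coming from mice that overexpress SULF2, a sulfatase that edits heparan sulfate, and all tumours were induced with the liver carcinogen DEN (diethylnitrosamine). GLI1 is a transcription factor activated by Hedgehog signalling, and the question was how its loss altered the tumours. Age, strain, sex, the cell type in which the transgene is active and the deleted part of Gli1 are not given in the labels, nor whether each tumour came from its own animal. The p-values therefore measure only the spread between these samples.

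In hepatocytes, UGTs join glucuronic acid from UDP-glucuronic acid to bilirubin, steroids and phenols in the endoplasmic reticulum. SULTs transfer sulfate from the donor PAPS to phenols, oestrogens, hydroxysteroids and bile acids in the cytosol. GSTs couple glutathione to electrophiles, among them products of lipid peroxidation. Several members are known to be controlled by the receptors CAR and PXR, by NRF2 and by sex-dependent growth hormone signals.

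The libraries held 76746128 to 132979502 counted reads in KO and 75205624 to 95777670 in WT. Gli1 had 4, 3 and 3 reads in KO replicates 1, 2 and 3, against 10, 20 and 7 in the WT replicates, and the genotypes did not overlap. The hepatocyte markers tested, such as Alb and Ttr, were abundant in all 6 libraries, with a summed level of 142170 to 167400 normalized CPM in KO and 155040 to 204680 in WT. Yet 8 of these 9 markers were lower in KO, with a median log2 fold change of -0.29. Normalized CPM are reads scaled to TMM-adjusted library sizes, and RPKM are the authors' values per length and depth. Sulf2 itself had 164.5, 2.63 and 10.2 normalized CPM in KO replicates 1, 2 and 3, against 76.4, 11.6 and 5.33 in the WT replicates, so 4 of the 6 libraries were at or below 11.6. Whether this row counts the reads of the transgene is not given in the labels. The 8 cholangiocyte markers ranged from 76.7 to 471.9 summed normalized CPM in KO and from 39.6 to 483.8 in WT, mostly reads of Spp1, and the other 7 ranged from 6.88 to 22.3 in KO and from 10.8 to 27.2 in WT. For 7 of the 8 cholangiocyte markers the log2 fold change was negative, which means lower in KO. Of the 8 stellate and fibroblast markers, 7 were higher in KO, with sums of 250.7 to 460.3 in KO and 115.8 to 293.2 in WT. Leukocyte and endothelial markers were mostly lower in KO. This held for 7 of 8 macrophage, 7 of 7 neutrophil, 8 of 8 T and B cell and 6 of 8 endothelial markers. Each list had 3 lower in KO at an unadjusted edgeR p under 0.05, as were 2.02% of all genes tested. WT replicate 3 was the highest library for 7 of 7 neutrophil markers, and WT replicate 2 for 6 of 8 macrophage markers. T and B cell markers were highest in WT replicate 1 (5) or WT replicate 3 (3), and no library was highest for more than 3 endothelial markers. The sums were 74.9 to 117.6 in KO and 88.3 to 295.7 in WT for macrophage, and 150.5 to 191.2 in KO and 225.8 to 267.3 in WT for endothelial markers. They were 4.89 to 9.57 in KO and 9.88 to 37.6 in WT for neutrophil, and 2.4 to 3.8 in KO and 4.56 to 8.49 in WT for T and B cell markers. The 7 pancreatic acinar markers tested were all negative, with sums of 25.1 to 80.4 in KO and 24.7 to 155.3 in WT. No marker passed, and their part in the results was not tested. In bulk tumour RNA, fewer cells of a type and less RNA per cell cannot be told apart.

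The promoters of 6 members are shown because the results turn on them. Ugt1a1 and Ugt1a9 start at separate first exons of 1 locus, Sult2a5 and Sult2a6 share their order of the libraries, and Sult5a1 and Sult1c2 are the members without overlap between genotypes. Sequences are from RefSeq on GRCm38.p6, run 5′ to 3′ on the gene's strand, and hold 250 bases before and 50 from the RefSeq start. The whole Sult1c2 window lies inside the span of its counted row (53829637 to 53846339), so it is not upstream of that row. Capitals mark the HNF1 hexamer GTTAAT and the TATA-box hexamer TATAAA on either strand. They lie at chr1:88211709-88212008 (plus strand) for Ugt1a1, chr1:88070529-88070828 (plus) for Ugt1a9, chr7:13623717-13624016 (plus) for Sult2a5, chr7:14254821-14255120 (minus) for Sult2a6, chr8:123158231-123158530 (minus) for Sult5a1 and chr17:53845909-53846208 (minus) for Sult1c2.
Ugt1a1: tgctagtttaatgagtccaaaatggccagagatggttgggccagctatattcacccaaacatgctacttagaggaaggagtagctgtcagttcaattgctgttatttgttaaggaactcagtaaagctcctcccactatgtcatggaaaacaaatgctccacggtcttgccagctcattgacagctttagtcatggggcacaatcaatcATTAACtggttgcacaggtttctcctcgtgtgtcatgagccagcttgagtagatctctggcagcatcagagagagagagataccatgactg
Ugt1a9: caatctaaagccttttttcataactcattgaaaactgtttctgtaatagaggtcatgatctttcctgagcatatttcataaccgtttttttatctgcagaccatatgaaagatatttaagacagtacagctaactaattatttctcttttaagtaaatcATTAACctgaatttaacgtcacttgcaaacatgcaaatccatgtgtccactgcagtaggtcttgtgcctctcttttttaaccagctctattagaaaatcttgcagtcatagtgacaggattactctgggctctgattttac
Sult2a5: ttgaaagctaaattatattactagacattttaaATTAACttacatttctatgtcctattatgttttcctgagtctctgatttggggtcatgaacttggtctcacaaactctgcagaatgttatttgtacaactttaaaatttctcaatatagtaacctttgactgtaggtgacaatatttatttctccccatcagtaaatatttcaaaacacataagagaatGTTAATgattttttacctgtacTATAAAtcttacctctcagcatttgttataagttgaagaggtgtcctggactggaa
Sult2a6: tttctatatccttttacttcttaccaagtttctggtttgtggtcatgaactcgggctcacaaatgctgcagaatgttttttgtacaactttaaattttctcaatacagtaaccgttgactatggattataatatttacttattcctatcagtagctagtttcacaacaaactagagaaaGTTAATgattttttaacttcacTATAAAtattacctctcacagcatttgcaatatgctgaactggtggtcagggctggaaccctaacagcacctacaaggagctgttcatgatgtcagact
Sult5a1: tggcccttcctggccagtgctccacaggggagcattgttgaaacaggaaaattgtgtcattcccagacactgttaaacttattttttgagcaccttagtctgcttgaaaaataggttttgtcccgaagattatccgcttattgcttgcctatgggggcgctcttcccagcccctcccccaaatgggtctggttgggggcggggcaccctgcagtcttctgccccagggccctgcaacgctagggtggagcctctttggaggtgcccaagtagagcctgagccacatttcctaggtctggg
Sult1c2: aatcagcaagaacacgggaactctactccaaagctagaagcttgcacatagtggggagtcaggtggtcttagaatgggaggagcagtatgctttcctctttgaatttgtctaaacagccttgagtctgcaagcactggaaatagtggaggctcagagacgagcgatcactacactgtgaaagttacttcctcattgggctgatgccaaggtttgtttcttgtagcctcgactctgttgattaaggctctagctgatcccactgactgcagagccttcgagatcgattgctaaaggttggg

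RefSeq promoters were found for 54 of the 62 members, 65 windows in all. GTTAAT stood in windows of 13 members, in 13 of 65 windows, against 7.1% of all 32851 windows of the same length. The antioxidant response motif TGACNNNGC, on either strand, stood in windows of 4 members (Gsta3, Gstm5, Gstm7 and Mgst1), against 12.4% of all windows. TATAAA stood in windows of 11 members, against 13.6% of all windows. The GLI motif GACCACCCA stood in 0 of the 65 windows and in 0.253% of all windows. The windows of Sult2a5 and Sult2a6 were identical at 207 of 344 aligned columns (60.2%). None of these motifs overlapped another in the windows printed.

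No conjugating enzyme passed the test between Gli1 KO and Gli1 WT tumours. Of the 62 members, 56 passed the filter on low counts and were tested, and 0 had a false discovery rate (FDR) under 0.05 in edgeR's quasi-likelihood test with Benjamini-Hochberg adjustment over 18359 genes, where 0% of all genes did. The smallest FDR of a member was 0.9997. Sult5a1, Sult2a7 and Sult1c2 were the 3 members with an unadjusted p under 0.05, a level that 3.62% of all genes tested reached. Sult1c2 was higher in KO, as were 1.6% of all genes at that level, and the other 2 were lower, as were 2.02%. DESeq2 gave 5 members at that level, against 3.88% of its genes, and called Sult5a1 (adjusted p = 0.0088), where it called 0.221% of all genes. Of these 5, Sult2a1, Sult2a6 and Sult2a7 are close paralogs. The genotypes did not overlap for Sult5a1 and Sult1c2, 2 of 56 members, against 8.11% of all genes (4.15% higher and 3.96% lower in KO). A log2 fold change below 0, which means lower in KO, was found for 41 of 56 members, against 51.8% of all genes, with a median of -0.28 for the members and -0.01 for all genes. Of these 56, the 9 Ugt1a rows share reads, and among the other 47 members 32 were negative. Without WT replicate 2 the balance turned, with 21 of 56 members negative and a median of 0.13.

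**Figure D1:**
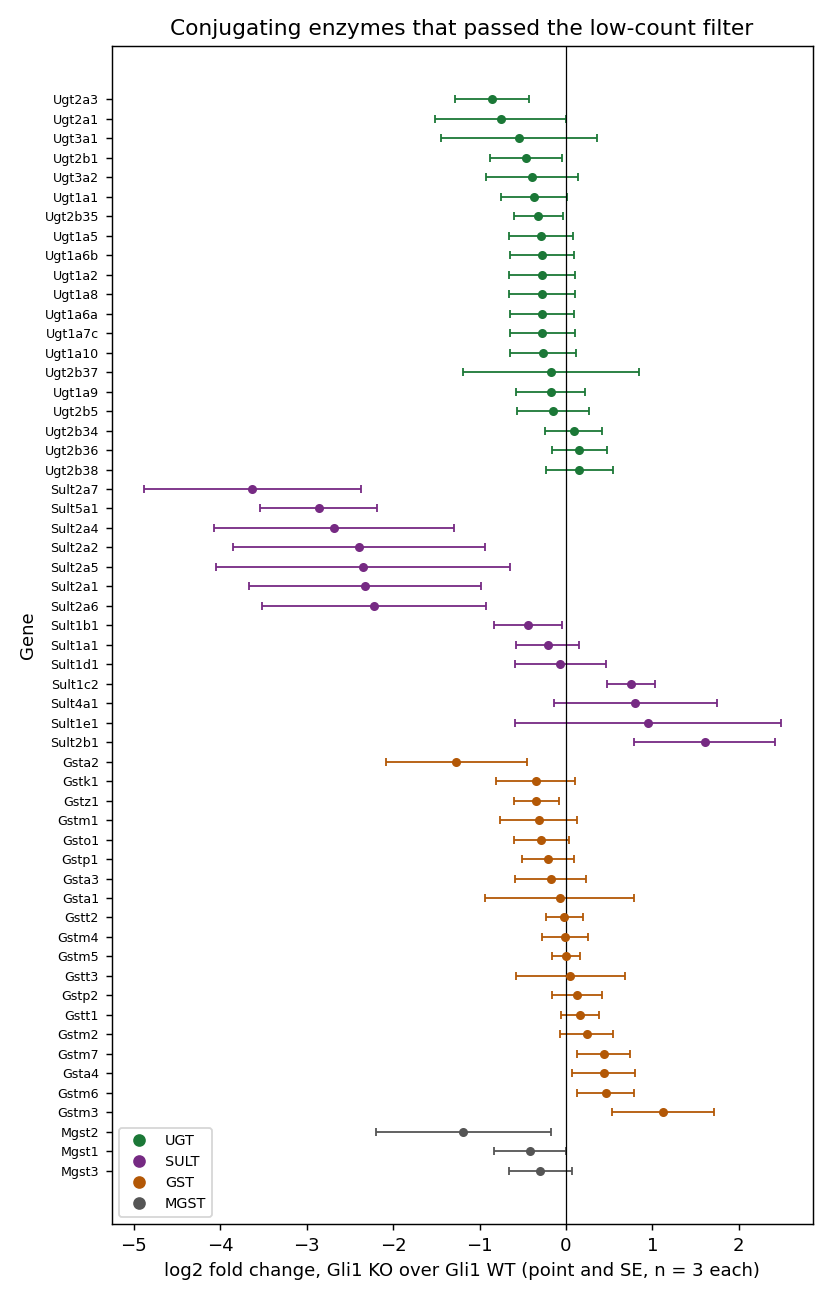
Log2 fold change of Gli1 KO over Gli1 WT tumours (x axis, point with SE, n = 3 each) for the 56 conjugating enzymes that passed the low-count filter, grouped by class (UGT, SULT, GST, MGST) and sorted within it. Points run from -3.63 for Sult2a7 to 1.61 for Sult2b1, and the sulfotransferases spread most widely.

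WT replicate 2 was the highest library for 36 of the 56 members (64.3%), against 3664 of all 18359 genes tested. Without the Ugt1a rows this was 27 of 47 members (57.4%). By class it was 17 of 20 UGT rows, 9 of 14 SULT rows tested and 8 of 19 GST rows tested. KO replicate 1 was the lowest library for 12 of 20 UGT rows, and WT replicate 1 for 10 of 19 GST rows. Over all genes tested the shares were 14.6% for KO replicate 1 and 16.5% for WT replicate 1. The Ugt1a rows share reads and weigh on the UGT count. KO replicate 1 was lowest for 17 of the 56 members, and without the Ugt1a rows for 8 of 47 (17.0%). The hepatocyte marker sum of WT replicate 2 was 155040 normalized CPM, mostly Alb, below the other WT libraries (204680 and 197520) and inside the KO range. Taken gene by gene, WT replicate 2 was the highest library for 3 of the 9 hepatocyte markers. Nr1i3, which encodes the receptor CAR, had 69.4, 111.9 and 53.5 normalized CPM in KO replicates 1, 2 and 3, against 133.6, 551.6 and 52.2 in the WT replicates. Its part in the levels of the enzymes was not tested.

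**Figure D2:**
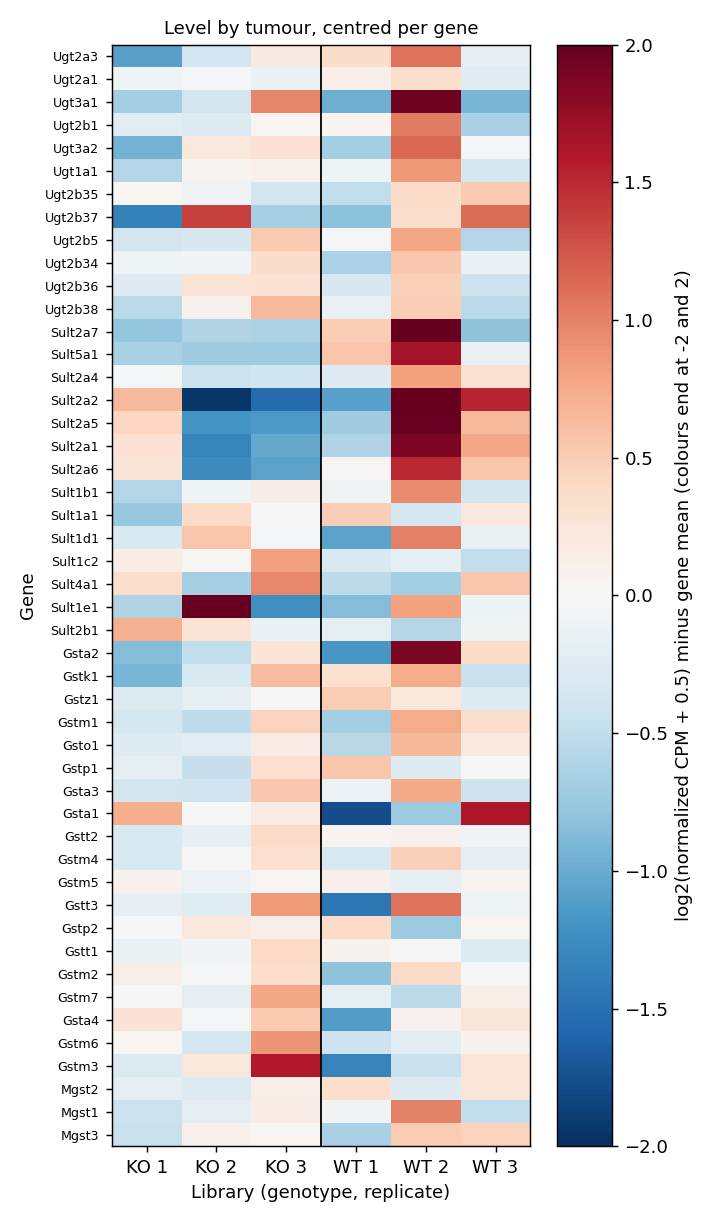
Level of each conjugating enzyme that passed the low-count filter, with Ugt1a1 standing for the Ugt1a rows, as log2(normalized CPM + 0.5) minus the gene's mean over the 6 libraries (red above, blue below, colours end at -2 and 2). The KO columns stand left of the WT columns, and WT replicate 2 holds the highest value for most UGT and Sult2a rows.

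The summed level of each class overlapped between genotypes. With the Ugt1a locus entered once, UGT genes summed to 1389, 1845 and 2334 normalized CPM in KO replicates 1, 2 and 3, against 1597, 3141 and 1487 in the WT replicates. SULT genes summed to 435.6, 894.7 and 687.6 in KO, against 851.3, 753.6 and 759.5 in WT. GST genes summed to 2113, 2079 and 3519 in KO, against 2386, 3602 and 2558 in WT. MGST genes summed to 630.0, 749.6 and 935.6 in KO, against 812.7, 1674 and 608.1 in WT. WT replicate 2 stood highest for UGT, GST and MGST sums, while KO replicate 1 stood lowest for UGT and SULT sums.

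**Figure D3:**
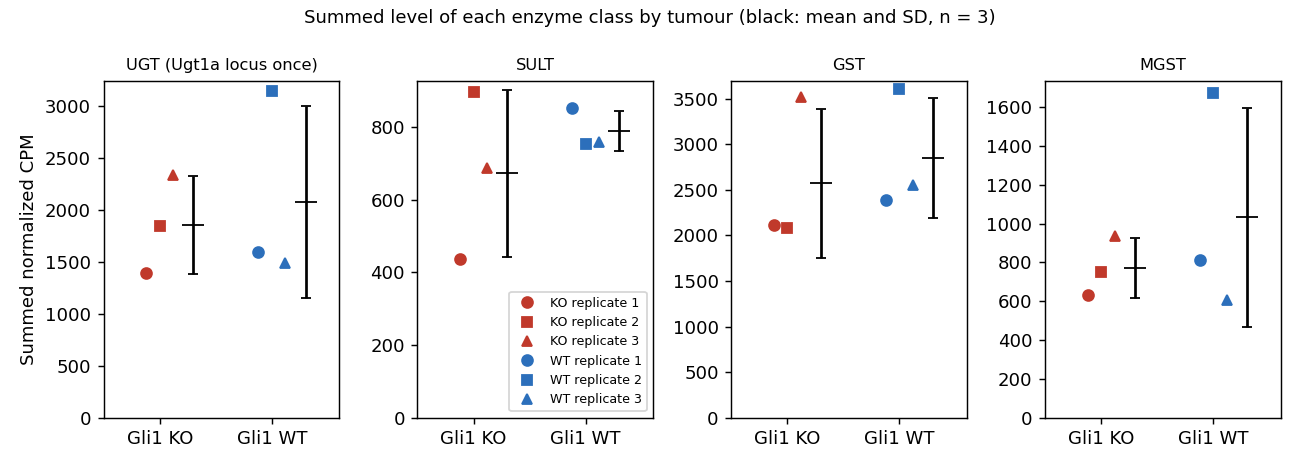
Summed normalized CPM (y axes, from 0) of each enzyme class in the 3 Gli1 KO and 3 Gli1 WT tumours, with the mean and SD in black. KO and WT points overlap in all 4 panels, and the UGT sum is highest at 3141 in WT replicate 2.

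Per length, the tumours held conjugating enzymes at very unequal levels. Averaged over the 6 libraries, 15 members were above 100 RPKM, of which 7 were Ugt1a rows that share reads, and 15 were below 1 RPKM. Gstm1, a mu-class GST, was highest with a mean of 509.4 RPKM, at 413.0, 337.1 and 716.2 in KO and 256.6, 768.2 and 565.4 in WT. Mgst1, a membrane-bound GST of the endoplasmic reticulum and outer mitochondrial membrane, followed with 386.3 RPKM. Sult1a1, which sulfates phenols, had 329.4 RPKM and Gstz1, which isomerises maleylacetoacetate in tyrosine breakdown, had 249.5. The libraries of these 4 genes overlapped in RPKM, so neighbours in this order were not separated by the spread between tumours. The highest UGT rows were Ugt1a9 with 229.8 RPKM, Ugt1a1 with 218.9 and Ugt1a5 with 189.7, all of which hold the shared reads described below. The leading UGT outside the Ugt1a locus was Ugt2b36 with 162.3 RPKM. At the other end, Sult1c1 had 0 reads in all 6 libraries, which allows up to 3 reads per library, or 0.0226 to 0.0362 CPM in KO and 0.0337 to 0.0396 in WT. Gsto2, Gstt4, Sult2a3 and Sult6b1 had at most 22 reads in any library and were not tested.

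The 9 Ugt1a genes lie on the plus strand of chromosome 1 between 88055388 and 88220002 (GRCm38). Each has its own first exon, and all share their last exons. In GENCODE M21 the exons common to all 9 fall into 4 segments, 88215044 to 88215175, 88215795 to 88215882, 88216138 to 88216357 and 88218127 to 88218997. They hold 1311 bases, from 30.4% of the exonic bases of Ugt1a6a to 59.9% of those of Ugt1a9. The 9 rows held nearly the same counts in each library. The lowest row had 84.5%, 80.5% and 72.8% of the reads of the highest in KO replicates 1, 2 and 3, against 82.8%, 80.1% and 80.4% in the WT replicates. The rows are therefore not 9 separate measurements, and their log2 fold changes, from -0.37 to -0.17, repeat largely the same reads.

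Reads of a row beyond those of the lowest row of the same library set the genes apart. Ugt1a1, the bilirubin UGT, had 53.7, 104.9 and 42.2 normalized CPM of such reads in KO replicates 1, 2 and 3, against 86.3, 193.2 and 79.5 in the WT replicates. Ugt1a9, which acts on phenols, had 55.2, 108.2 and 194.1 in KO, against 66.1, 147.2 and 83.3 in WT. KO replicate 3 thus had the lowest value for Ugt1a1 and the highest for Ugt1a9, and the genotypes overlapped for both. The means were 66.9 ± 33.4 in KO and 119.7 ± 63.7 in WT for Ugt1a1 (SD, n = 3 each, exact two-sided permutation p = 0.3). For Ugt1a9 they were 119.1 ± 70.1 in KO and 98.9 ± 42.7 in WT (SD, n = 3 each, exact two-sided permutation p = 0.7). Over the 9 rows the Benjamini-Hochberg adjusted permutation p was 0.72 or above, and 3 against 3 samples allow no p below 0.1. Ugt1a6a averaged 18.2 ± 2.09 in KO and 21.7 ± 7.42 in WT, and Ugt1a5, Ugt1a6b, Ugt1a7c and Ugt1a10 stayed below Ugt1a1 and Ugt1a9 in every library. Ugt1a2 and Ugt1a8 took turns as the lowest row and differed by at most 24 reads.

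**Figure D4:**
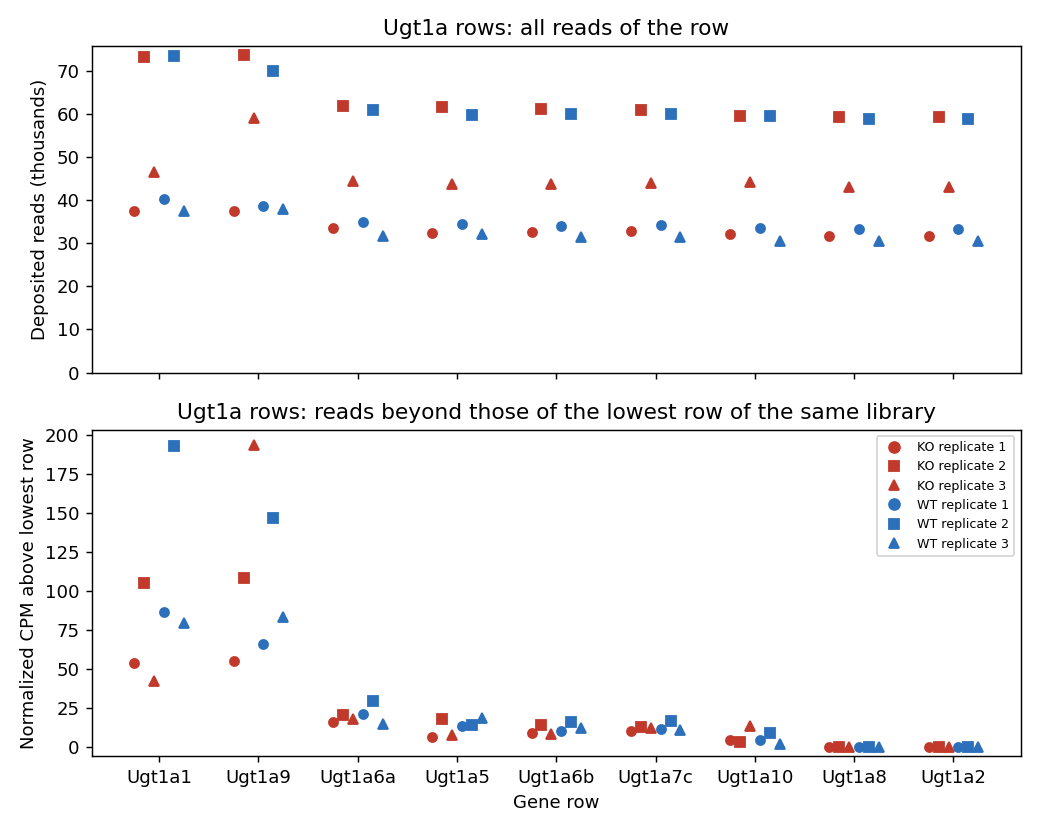
Reads of the 9 Ugt1a rows in the 3 Gli1 KO (red) and 3 Gli1 WT (blue) tumours. The upper panel gives all deposited reads, nearly level across rows, and the lower panel the normalized CPM beyond the lowest row of the library, where Ugt1a1 and Ugt1a9 stand out and reach 193.2 in WT replicate 2 and 194.1 in KO replicate 3.

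The Ugt2 genes, which lie together on chromosome 5 and act on steroids, bile acids and drugs, had 3 positive and 6 negative log2 fold changes. Ugt2a3 had 58.2, 94.9 and 140.8 normalized CPM in KO replicates 1, 2 and 3, against 159.2, 263.3 and 110.8 in the WT replicates. Only KO replicate 3 overlapped the WT range. Its log2 fold change of -0.86 ± 0.43 (SE, n = 3 each) had the smallest edgeR p among UGT genes, 0.0869, and did not pass (FDR 0.9997). Ugt2b36 averaged 400.1 ± 80.6 in KO and 359.9 ± 131.6 in WT (SD, n = 3 each), a log2 fold change of 0.15 ± 0.32. Ugt2b1 had 119.8 ± 14.6 in KO and 165.0 ± 97.1 in WT, where WT replicate 2 alone reached 272.6. Ugt2b35, at 59.8, 55.4 and 45.1 in KO and 41.3, 75.0 and 84.0 in WT, had a log2 fold change of -0.32 ± 0.28. Ugt2b37 ran from 0.41 to 5.47 in KO and from 0.80 to 4.51 in WT, the widest proportional range among the UGT genes. Ugt2b5, Ugt2b34 and Ugt2b38 had log2 fold changes of -0.15 ± 0.42, 0.09 ± 0.33 and 0.15 ± 0.39. Ugt2a1, an olfactory UGT, stayed at or below 0.12 normalized CPM in KO and 0.30 in WT.

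Ugt3a1 and Ugt3a2 are neighbours on chromosome 15 that use other sugar donors than glucuronic acid in humans. Ugt3a1 had 12.1, 15.1 and 39.3 normalized CPM in KO replicates 1, 2 and 3, against 9.73, 76.9 and 10.2 in the WT replicates. Ugt3a2 had 52.7, 119.9 and 124.9 in KO, against 63.2, 227.0 and 100.9 in WT. Both were highest in WT replicate 2, and Ugt3a1 had a log2 fold change of -0.54 ± 0.90 that became 1.16 without that library.

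By the median over their rows, the sulfotransferases varied more between tumours than the UGT and GST genes. The median SD of log2(normalized CPM + 0.5) over the 6 libraries was 0.84 for the 14 SULT genes tested and 0.48 for the 20 UGT rows. It was 0.44 for the 19 GST genes and 0.28 for all genes. These rows are not independent. Of the SULT genes, 6 are Sult2a paralogs (SD 0.48 to 1.78), and 9 UGT rows are Ugt1a rows that share reads (0.47 to 0.50). The SD ran from 0.44 to 1.20 for the other SULT genes and from 0.21 to 1.19 for the other UGT genes. Sult1a1 had 327.5, 718.4 and 557.7 normalized CPM in KO replicates 1, 2 and 3, against 779.8, 434.7 and 638.1 in the WT replicates (log2 fold change -0.21 ± 0.36). Sult1d1, which sulfates catecholamine metabolites in mouse, had 82.7, 151.0 and 99.4 in KO, against 48.3, 207.4 and 92.7 in WT. For both genes the genotypes overlapped. Exons of Sult1a1 overlap those of Sgf29 on the other strand, and without a stated strand their reads cannot be told apart. The same limit holds for Gstz1 (Pomt2 and Gm6566), Sult2b1 (Lmtk3 and Gm31597) and Gstm5 (4933431E20Rik), and Gstt3 overlaps Gm20441 on its own strand.

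Sult1c2, an aryl sulfotransferase gene on the minus strand of chromosome 17 (53829637 to 53846339), had 7.41, 6.82 and 12.2 normalized CPM in KO replicates 1, 2 and 3, against 5.30, 5.79 and 4.58 in the WT replicates. All KO libraries lay above all WT libraries, with the nearest at 6.82 in KO and 5.79 in WT. The log2 fold change was 0.75 ± 0.28 (SE, n = 3 each) with an unadjusted edgeR p of 0.0315 (FDR 0.9997), and it was 0.45 without KO replicate 3. Sult1e1, the oestrogen sulfotransferase, had 0.30, 4.39 and 0.02 in KO, against 0.18, 1.64 and 0.64 in WT. KO replicate 2 held 583 of its reads and KO replicate 3 only 2. Sult1b1, which sulfates thyroid hormones, averaged 12.4 ± 3.19 in KO and 16.8 ± 8.85 in WT (SD, n = 3 each).

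Sult2b1 and Sult4a1 were counted at low levels. Sult2b1, a cholesterol sulfotransferase, had 0.79, 0.45 and 0.22 normalized CPM in KO replicates 1, 2 and 3, against 0.20, 0.03 and 0.25 in the WT replicates (log2 fold change 1.61 ± 0.82). Only KO replicate 3 lay inside the WT range. Sult4a1, known mainly from brain, had 0.89, 0.19 and 1.63 in KO, against 0.26, 0.18 and 1.09 in WT.

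Sult5a1, a member of the family whose substrate is little known, lies on the minus strand of chromosome 8 (123142847 to 123158315) and was counted at a low level. It had 26, 29 and 18 reads in KO replicates 1, 2 and 3, against 97, 243 and 50 in the WT replicates. In normalized CPM this was 0.25, 0.22 and 0.22 in KO, against 1.21, 3.21 and 0.56 in WT. The KO libraries were close together and all below the WT libraries, which differed among themselves. The log2 fold change was -2.86 ± 0.68 (SE, n = 3 each), with the smallest unadjusted edgeR p of any member, 0.00426 (FDR 0.9997). It was -1.96 without WT replicate 2, and between -3.27 and -1.96 over all 6 libraries left out in turn, each at an unadjusted p under 0.05.

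The 7 Sult2a genes encode hydroxysteroid and bile acid sulfotransferases, known in mouse liver for higher expression in females, and lie on chromosome 7 between 13623967 and 14492926. All 6 that were tested had negative log2 fold changes, from -3.63 to -2.22, and 0 passed. Sult2a2, the highest per length, had 3.05, 0.09 and 0.28 normalized CPM in KO replicates 1, 2 and 3, against 0.56, 11.4 and 6.01 in the WT replicates (log2 fold change -2.39 ± 1.46). KO replicate 1 lay above WT replicate 1. Sult2a1 had 1.12, 0.03 and 0.16 in KO, against 0.38, 4.43 and 1.79 in WT. Sult2a5 had 1.07, 0.008 and 0.02 in KO, against 0.21, 4.10 and 1.34 in WT, where KO replicates 2 and 3 held 1 and 2 reads. These genes and Sult2a6, whose promoters are shown above, had the same 3 highest libraries, WT replicate 2, WT replicate 3 and KO replicate 1. Without KO replicate 1 the log2 fold change of Sult2a2 was -5.04 and that of Sult2a5 -6.88, and without WT replicate 2 they were -1.53 and -1.07.

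Sult2a7 had another order, with 0.10, 0.18 and 0.17 normalized CPM in KO replicates 1, 2 and 3, against 0.96, 4.62 and 0.09 in the WT replicates. WT replicate 3 lay below every KO library. Its log2 fold change was -3.63 ± 1.26 with an unadjusted edgeR p of 0.0247 (FDR 0.9997), and -1.79 without WT replicate 2. The Sult2a genes are close paralogs, so reads may be split among their rows and single values are uncertain.

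Sult3a1, a sulfotransferase also known for female expression in mouse liver, was above 10 reads in 1 library. It had 10, 0 and 5 reads in KO replicates 1, 2 and 3, against 8, 3445 and 2 in the WT replicates. The filter on low counts removed it, and it was not tested. Genes known for sex-biased expression in mouse liver were uneven as well, in both directions of bias. Of 11 female-biased genes tested, 10 had negative log2 fold changes, 3 were lower in KO at an unadjusted edgeR p under 0.05 (2.02% of all genes) and 0 passed. Of 11 male-biased genes, 9 had negative log2 fold changes, 1 was lower and 1 higher at that level and 0 passed. WT replicate 2 was the highest library for 8 of the 11 female-biased and 7 of the 11 male-biased genes. The female-biased exceptions were Hao2, highest in KO replicate 3, Cyp2b9, highest in WT replicate 3, and Rtn4, highest in WT replicate 1. Ddx3y, a gene of the Y chromosome, was counted in all 6 libraries at 37.6 to 66.5 normalized CPM in KO and 49.2 to 71.2 in WT. Xist, the X-chromosome gene known for female expression, stayed at 0.05 to 0.28 in KO and 0.10 to 0.22 in WT. By both genes, all 6 libraries read as male. The part of sex-biased expression in the Sult2a and Sult3a1 levels was not tested.

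**Figure D5:**
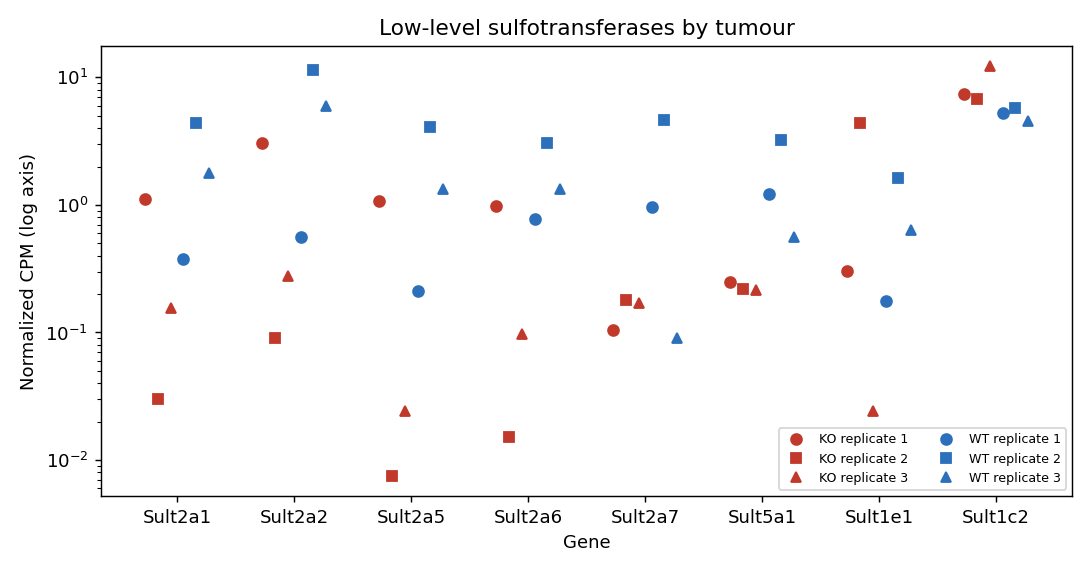
Normalized CPM (log axis) of 8 sulfotransferase genes in the 3 Gli1 KO (red) and 3 Gli1 WT (blue) tumours. Sult5a1 and Sult1c2 keep the genotypes apart, while the Sult2a genes spread widely, Sult2a5 from 0.008 in KO replicate 2, where it had 1 read, to 4.10 in WT replicate 2.

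Among the GST genes, 8 of the 19 tested had positive and 11 negative log2 fold changes, with a median of -0.01. The alpha class detoxifies products of lipid peroxidation. Gsta3, its main gene here, had 439.4, 429.3 and 822.9 normalized CPM in KO replicates 1, 2 and 3, against 525.9, 962.6 and 425.1 in the WT replicates (log2 fold change -0.18 ± 0.42). Gsta4, which conjugates hydroxynonenal, had 54.0, 43.2 and 63.5 in KO, against 20.1, 46.6 and 52.1 in WT (0.44 ± 0.36). The low WT value was that of replicate 1, and without it the log2 fold change was 0.12. Gsta1 had 14.4, 8.61 and 9.64 in KO, against 2.13, 4.88 and 27.3 in WT, and its log2 fold change of -0.07 ± 0.86 ran from -0.56 without WT replicate 1 to 1.64 without WT replicate 3. Gsta2 had 1.81, 2.49 and 4.54 in KO, against 1.38, 15.0 and 4.91 in WT.

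The 7 Gstm genes form a cluster on chromosome 3 between 107895821 and 108044894. Gstm1 had 591.3, 529.8 and 1044 normalized CPM in KO replicates 1, 2 and 3, against 466.0, 1267 and 962.0 in the WT replicates (log2 fold change -0.32 ± 0.44). Gstm3 had 59.5, 85.9 and 221.4 in KO, against 28.7, 53.2 and 86.8 in WT. Its log2 fold change of 1.12 ± 0.59 had the smallest unadjusted edgeR p of the GST genes, 0.102 (FDR 0.9997), and was 0.37 without KO replicate 3. Gstm7 and Gstm6, also highest in KO replicate 3, had 0.43 ± 0.31 and 0.46 ± 0.33. Gstm5 was the steadiest member tested, with 11.7 ± 0.87 in KO and 11.7 ± 1.15 in WT (SD, n = 3 each). Gstm2 and Gstm4 had 0.24 ± 0.31 and -0.01 ± 0.27.

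In the pi class, Gstp1 had 116.4, 95.3 and 166.2 normalized CPM in KO replicates 1, 2 and 3, against 194.2, 109.6 and 132.1 in the WT replicates (log2 fold change -0.21 ± 0.30). Its neighbour Gstp2 had 39.8 ± 2.84 in KO and 36.3 ± 13.6 in WT (SD, n = 3 each). In the theta class, Gstt1 had 151.3, 160.7 and 219.8 in KO, against 174.3, 164.4 and 137.7 in WT (0.16 ± 0.22). Gstt2 had 49.4 ± 13.4 in KO and 50.0 ± 2.87 in WT, and Gstt3 spread from 36.1 to 77.5 in KO and from 15.4 to 90.8 in WT. All 5 overlapped between genotypes. Gstz1 had 384.1, 413.6 and 471.8 in KO, against 672.4, 546.3 and 394.2 in WT (-0.35 ± 0.26), and WT replicate 3 lay within the KO range. Gsto1, which reduces dehydroascorbate, had 35.7 ± 6.08 in KO and 43.5 ± 17.6 in WT, and the mitochondrial and peroxisomal Gstk1 had 41.3 ± 22.7 and 52.7 ± 20.6.

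The membrane-bound enzymes all had negative log2 fold changes. Mgst1 had 624.2, 741.0 and 927.1 normalized CPM in KO replicates 1, 2 and 3, against 807.5, 1663 and 596.6 in the WT replicates. Its log2 fold change of -0.42 ± 0.42 became 0.12 without WT replicate 2. Mgst3 had 5.75, 8.53 and 8.27 in KO, against 4.90, 11.6 and 11.2 in WT (-0.30 ± 0.36). Mgst2, which can make leukotriene C, had 6, 3 and 15 reads in KO, against 24, 2 and 22 in WT, too few for more than a loose estimate.

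No gene that supplies the conjugated groups passed the test. Of 4 listed genes for UDP-glucuronic acid, including Ugdh, which makes it, 0 had an unadjusted edgeR p under 0.05, and 2 were positive and 2 negative. Of 5 for PAPS, including the synthase Papss2, 0 did either, and 1 was positive. Of 10 glutathione genes tested, 1 did, against 3.62% of all genes. It was Slc7a11, a cystine importer, with 0.73, 0.33 and 0.33 normalized CPM in KO replicates 1, 2 and 3, against 0.08, 0.48 and 57.5 in the WT replicates, and only WT replicate 3 was above 0.73. Papss2 had 115.4, 164.6 and 230.9 in KO and 123.8, 184.7 and 151.2 in WT. The glutamate-cysteine ligase subunit Gclc had 238.8, 176.0 and 157.6 in KO and 225.2, 169.9 and 332.8 in WT.

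Among 14 other conjugating enzymes, 2 were lower in KO at an unadjusted edgeR p under 0.05, against 2.02% of all genes, and 0 passed. Gnmt, glycine N-methyltransferase, had 146.0, 395.5 and 439.6 normalized CPM in KO replicates 1, 2 and 3, against 808.2, 1072 and 422.4 in the WT replicates. Nnmt, nicotinamide N-methyltransferase, had 13.1, 7.62 and 7.77 in KO, against 4.85, 82.1 and 57.9 in WT, with WT replicate 1 lowest of all. Of 3 deconjugating enzymes, Arsa, the arylsulfatase A gene, had 62.9, 45.2 and 73.3 in KO, against 30.6, 37.0 and 42.0 in WT (log2 fold change 0.73 ± 0.23). Its unadjusted edgeR p was 0.0156, and it did not pass the adjustment. Of the 3, Arsa alone was under 0.05, where 1.6% of all genes were higher in KO at that level.

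Of 14 regulators, 1 was higher in KO at an unadjusted edgeR p under 0.05, against 1.6% of all genes, and 0 passed. The genotypes did not overlap for 4 of the 14, against 8.11% of all genes, with Nfe2l2 and Keap1 higher and Arnt and Esr1 lower in KO. Nfe2l2, which encodes NRF2, had 114.6, 95.0 and 81.1 normalized CPM in KO replicates 1, 2 and 3, against 63.6, 58.3 and 74.7 in the WT replicates (log2 fold change 0.56 ± 0.19). Its unadjusted edgeR p was 0.0239. Every KO library was above every WT library. In the same libraries the NRF2 reporter gene Nqo1 had 13.6, 6.89 and 8.49 in KO, against 9.21, 14.2 and 19.5 in WT, and WT replicate 3 was highest for it and for Srxn1 and Txnrd1, which also report NRF2. Srxn1 had 75.4, 54.0 and 58.7 in KO, against 48.1, 39.7 and 179.2 in WT, so WT replicates 1 and 2 lay below every KO library. Txnrd1 had 93.9, 100.2 and 112.4 in KO, against 84.6, 112.6 and 131.3 in WT. Over the 11 reporter genes of NRF2, AhR, CAR, PXR and PPAR-alpha listed, 9 had negative log2 fold changes, with 0 at an unadjusted p under 0.05. Nr1i2, which encodes PXR, had 58.0, 98.2 and 83.5 in KO, against 82.0, 105.1 and 58.4 in WT.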

How the data were processed

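RNA was sequenced from 3 Gli1 KO and 3 Gli1 WT tumours. The tools HTSeq, TopHat2 2.0.6 and bcl2fastq and the human builds hg19 and GRCh37 are listed, per the submitters' processing notes, while the deposited identifiers are of mouse. Of 42462 identifiers shared with GENCODE M21, 84.2% had the same start, so coordinates are read as GRCm38. The authors deposited raw read counts and RPKM values per gene. The counting mode and strand are not given in the sources used here. RPKM were used to compare levels between genes.

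Tests used edgeR 4.0.16 on the deposited counts (R 4.3.3, filterByExpr, TMM, robust quasi-likelihood, two-sided) over 18359 genes, Benjamini-Hochberg adjusted, at FDR 0.05. SE is the log2 fold change divided by the root of the F statistic. DESeq2 1.42.0, limma 3.58.1 voom, RLE factors, other filters, a replicate block, a fit with the low or high range of the description numbers as a term and leaving out each library were alternatives, and the count of negative fold changes was added after seeing the data. The low range (under 2000) held KO replicates 1 and 3 and WT replicate 1, so it was partly tied to genotype. The test was tried on simulated counts. The limits on a count of 0 cover counting error only.

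Members, lists (152 entries, 150 matched) and tests were chosen with earlier results of these data known. Genes named were, per class (GST by letter), the 3 of highest mean RPKM, the 2 of smallest p, the 2 of largest SD and all at unadjusted p under 0.05. Others were chosen after their values were seen. Promoter windows come from RefSeq (GRCm38.p6). One listed gene is not reported here.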

Additional observations from a re-analysis of the deposited data

How the results depend on the processing

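The count of members past FDR 0.05 was 0 under each alternative except DESeq2, which called 1 (Sult5a1, log2 fold change -2.86). Of the pathway lists, edgeR called 0 genes and DESeq2 called 1 (Mup7). Members at an unadjusted p under 0.05 numbered 3, against 5 with DESeq2, 1 with a CPM of at least 1 in 3 libraries and 1 with the covariate for the range of the description number. The share of all genes at that level was 3.62% in the main fit, 3.88% with DESeq2, 3.25% with the stricter filter and 2.47% with the covariate. Members without overlap numbered 2, against 1 with that stricter filter, where the shares of all genes were 8.11% and 7.54%. Leaving out each library in turn gave 2 to 8 members at p under 0.05. There were 8 without KO replicate 1, and 2 without KO replicate 2, KO replicate 3 or WT replicate 2. The 8 included Sult2a1, Sult2a2, Sult2a4, Sult2a5 and Sult2a6, close paralogs among whose rows reads may be split. With each library left out in turn, 2.66 to 9.47% of all genes reached that level, and 2.76% without KO replicate 1. Members without overlap then numbered 3 to 11. They were most when WT replicate 1 (11), WT replicate 3 (10) or KO replicate 1 (7) was left out, followed by WT replicate 2 (6) and KO replicate 3 (5). With fewer samples groups separate more easily, and the share of all genes was then 14.7 to 28.0%. Negative fold changes numbered 21 to 42 of 56, with 21 without WT replicate 2.

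The log2 fold change reversed for Gsta1 with voom (0.64), the replicate block (0.71) and the covariate (0.78), for Sult1d1 with the same 3 settings (0.12, 0.14 and 0.46), for Ugt3a1 with the block (0.03), for Mgst3 (0.05) and Ugt2b37 (0.22) with the covariate and for Gstt2 without the low-count filter (0.00). Signs were followed gene by gene only for the 32 tested members that met the naming rule, so other members may have reversed too. The cause of the reversals was not tested. Deviations from the group means correlated at -0.29, 0.18 and -0.34 between same-numbered samples. With 3 libraries per group these values cannot decide whether the numbers pair the samples. With the replicate block, 2 members had p under 0.05 and 0 passed. Leaving out 1 library also reversed the sign of other small changes among those 32 members. The values ran from -0.56 to 1.64 for Gsta1, from -0.55 to 0.25 for Gsta3, from -0.68 to 0.02 for Gstm1, from -0.55 to 0.04 for Gsto1, from -0.46 to 0.06 for Gstp1, from -0.13 to 0.41 for Gstp2, from -0.03 to 0.27 for Gstt1, from -0.26 to 0.13 for Gstt2, from -0.39 to 0.87 for Gstt3, from -0.69 to 0.12 for Mgst1, from -0.47 to 0.06 for Sult1a1, from -0.43 to 0.66 for Sult1d1, from -0.59 to 0.08 for Ugt1a1, from -0.50 to 0.13 for Ugt1a5, from -0.42 to 0.26 for Ugt1a9, from -1.91 to 0.50 for Ugt2b37, from -1.25 to 1.16 for Ugt3a1. Members under about 1 normalized CPM are limited by their read counts.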

Other observations

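Reporter genes of the receptors that control conjugating enzymes were uneven across the tumours as well. Cyp4a14, a target of PPAR-alpha, had 20.6, 119.0 and 45.3 normalized CPM in Gli1 KO replicates 1, 2 and 3, against 85.7, 1157 and 10.9 in the Gli1 WT replicates. Cyp1a2, a target of the aryl hydrocarbon receptor, had 19.1, 29.3 and 41.9 in KO, against 20.1, 237.5 and 41.3 in WT. Cyp3a11, a target of PXR, had 1132, 4838 and 2945 in KO, against 2245, 5043 and 666.2 in WT. WT replicate 2 held the highest value of these 3 and of 6 of the 11 reporter genes listed, while Nqo1, Srxn1, Txnrd1 and Pdk4 were highest in WT replicate 3. Cyp2b10, a target of CAR, differed, with 0.17, 1.56 and 11.1 in KO, against 3.06, 4.73 and 2.19 in WT, where KO replicate 3 was highest. None of these genes passed edgeR's adjustment.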
